A study of Rattus norvegicus with 18 samples.

Results

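Cathepsins are proteases, most of which work in the acid interior of lysosomes, and 8 of them are described here across lungs of rats that breathed cigarette smoke: Ctsb, Ctsc, Ctsd, Ctsh, Ctsk, Ctsl, Ctss and Ctsz. They were found as all probe sets (groups of oligonucleotides that measure 1 transcript) annotated to one of these symbols and no other, which gave 10 probe sets for the 8 genes, of 13807 genes with 1 symbol on the arrays. Male Sprague-Dawley rats were exposed through the nose to mainstream smoke of the 2R4F reference cigarette, or to a sham exposure, during 13 weeks, with sessions of 2 h on 5 days of each week. The smoke held 300 or 600 µg total particulate matter (TPM) in each litre, and lungs were collected 2, 6 or 20 h after the final session. Each of the 9 conditions had 1 array of each of 2 Affymetrix types, called A and B, 18 arrays in all, and how many animals an array holds was not given. The groups are therefore sham, 300 µg/l and 600 µg/l, each with n = 3 arrays of a type, 1 per recovery time.

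Cathepsins are made as inactive precursors, carried to lysosomes mostly by mannose 6-phosphate receptors, and activated there at acid pH. Ctsd is an aspartic protease, and the other 7 are cysteine proteases of the papain family. In the lung, alveolar macrophages, the resident phagocytes that take up inhaled particles, hold many cathepsins, and alveolar type 2 cells, which make surfactant, use Ctsh to process surfactant proteins. The family is best known in smoke-exposed lung for its ability to cleave elastin and collagen. The comparisons below ask which cathepsin transcripts followed the smoke concentration and which did not.

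All 10 probe sets lie on array type A and all passed the filter on dim signals, which asked for at least 183.8 in 3 of the 9 arrays. Ctsk passed it only through smoke arrays, so that it could be tested only because it was brighter there. Ctsc and Ctsl have 2 probe sets each, and the brighter stands for the gene. Signals are on the MAS5 scale of the authors, whose trimmed mean lay between 499.89 and 500.15 on every array, and changes are differences of log2(signal + 50), which understate the fold of dim genes. Levels of different genes are not set against each other, because each probe set has its own brightness. Since no condition had a second array of its type, the recovery times stand in for replicates. The spread behind the p-values therefore mixes variation between arrays with any change of the exposure difference over time. The p-values measure nothing beyond that spread, and the small number of arrays limits the precision. One label of the 4 smoke samples at 20 h says sham, while their titles and source name smoke, so calls were also computed without 20 h: Ctsd and Ctsk still passed at 600 µg/l against sham, with changes of 0.93 (adjusted p = 0.00306 in limma) and 1.73 (0.0299), and Ctsd at 300 µg/l. Of the type B arrays, the deviations of the one labelled sham at 2 h correlated at -0.319 on average with those of the other sham arrays, the lowest of the 18. The type B array of 300 µg/l at 2 h was close, at -0.29 with its own group, and all type B arrays had such a mean below 0. The sham array at 2 h touches the cathepsins only through the joint adjustment of p-values over 19638 probe sets. Without it the same number of cathepsins passed in each comparison that could be refitted.

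The genes are spread over the rat genome, and the sequences before 3 of them are shown. They are those of the 2 genes that passed at 600 µg/l against sham and of Ctsl. The smoke difference of Ctsl changed sign with time at both concentrations but passed no test. On the GRCr8 assembly, in the RefSeq annotation, Ctsd spans 206956945 to 206968821 of chromosome 1 on the minus strand, Ctsk spans 185747548 to 185758512 of chromosome 2 on the plus strand, and Ctsl spans 770104 to 776266 of chromosome 17 on the plus strand. Ctss lies close to Ctsk, from 185775316 to 185803440 of chromosome 2. Ctsd and Ctsk rose with smoke, and Ctsl stood above sham at 2 h and below it at 20 h at both smoke concentrations. Its log2 differences at 20 h were -0.14 at 600 µg/l and -0.03 at 300 µg/l, each 1 array against 1 array. The 250 bases before each start, from RefSeq on GRCr8, read 5′ to 3′ on the gene's own strand, are chr1:206968822-206969071 for Ctsd, chr2:185747298-185747547 for Ctsk and chr17:769854-770103 for Ctsl. Capitals mark matches to CACGTG, the core of the motif bound by TFEB and TFE3, or to TGACNNNGC, the core of the antioxidant response element bound by NRF2.
Ctsd: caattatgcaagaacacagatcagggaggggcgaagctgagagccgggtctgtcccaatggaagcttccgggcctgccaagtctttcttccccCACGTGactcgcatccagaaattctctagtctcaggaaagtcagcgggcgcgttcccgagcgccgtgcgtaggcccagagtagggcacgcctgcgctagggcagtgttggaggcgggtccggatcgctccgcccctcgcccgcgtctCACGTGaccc
Ctsk: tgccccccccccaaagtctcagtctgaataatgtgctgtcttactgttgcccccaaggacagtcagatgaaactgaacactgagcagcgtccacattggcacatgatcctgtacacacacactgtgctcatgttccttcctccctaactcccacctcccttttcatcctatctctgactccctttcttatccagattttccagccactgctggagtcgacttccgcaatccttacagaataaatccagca
Ctsl: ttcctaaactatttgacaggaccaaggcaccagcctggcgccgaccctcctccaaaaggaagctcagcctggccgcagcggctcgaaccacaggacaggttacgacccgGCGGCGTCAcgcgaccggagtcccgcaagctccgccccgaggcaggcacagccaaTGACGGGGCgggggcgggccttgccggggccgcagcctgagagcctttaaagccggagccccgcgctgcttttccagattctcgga

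CACGTG, searched on both strands, stood in the windows of 5.59% of 33469 rat promoters, and 0.43% held it 2 or more times. Of the 7 cathepsins with a promoter in the table, Ctsd alone held it, at -157 to -152 and at -10 to -5 from the start. The second of these was part of the longer TCACGTGA, present in 0.657% of promoters. TGACNNNGC, which can overlap TGACTCA, stood in 10.1% of promoters and 2 or more times in 0.627%. Among the cathepsins Ctsl alone held it, at -141 to -133 and at -86 to -78. TGACTCA, the AP-1 motif, was in 4.05% of promoters and in no cathepsin window. GAGGAAGT, a form of the PU.1 motif, was in 2.04% of promoters and in the windows of Ctsc and Ctss. The Ctsk window held none of these motifs. Each match is a run of letters, and binding was not measured.

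At 600 µg/l against sham, 2 of the 8 cathepsins rose, none fell and 6 did not pass the test (limma, adjusted p under 0.05), where 0.428% of all probe sets were called higher. Ctsk, a collagen-degrading protease best known from bone-resorbing osteoclasts, rose 3.33-fold on the log2(signal + 50) scale, and Ctsd, the main aspartic protease of lysosomes, rose 1.89-fold. Ctsk entered the test only through its smoke arrays, so its call is no independent part of that count, and with no filter on dim signals its adjusted p was 0.031. All 8 changes were above 0, beside 48.2% of all probe sets, and 7 had an unadjusted p under 0.05, beside 10.3%. The median change was 0.45 (0.39 without Ctsk), beside -0.01 over all probe sets tested. The 8 genes were chosen with earlier results of these data known. Counts and shares of them, here and below, therefore describe the list and do not test it. Among the 7 is Ctsc, whose dimmer probe set had an unadjusted p of 0.318 in limma. The RNA came from lung tissue and not from sorted cells, so more cells of a type and more RNA per cell cannot be told apart.

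**Figure D1:**
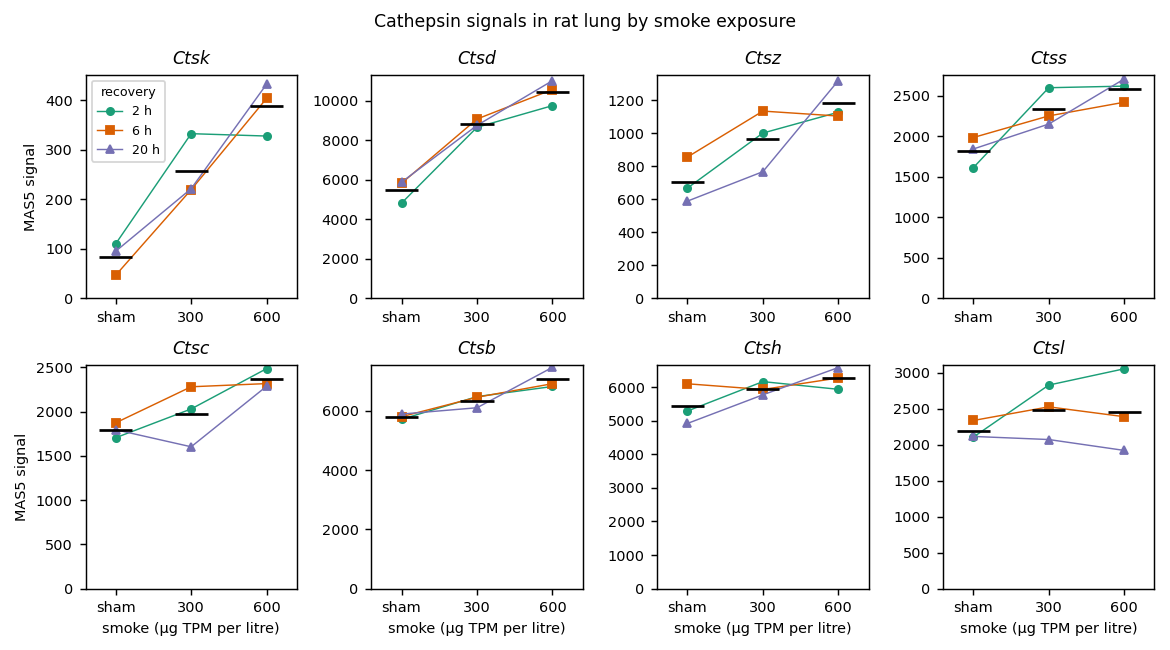
MAS5 signal (y axis, linear, from 0) of the brighter probe set of each cathepsin against smoke in sham, 300 and 600 µg TPM per litre, with 1 point per array, lines joining arrays of a recovery time (2, 6 and 20 h) and black bars at the means of 3 arrays. Ctsd stepped up at both concentrations at all 3 times, while Ctsl went up with smoke at 2 h and down at 20 h.

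Ctsd had signals of 4824.7, 5829.6 and 5884.9 in sham at 2, 6 and 20 h, of 8665.2, 9084.4 and 8761.6 at 300 µg/l, and of 9762, 10578.1 and 11027.4 at 600 µg/l. The 3 groups did not overlap, and the order of sham, 300 and 600 µg/l was the same at each recovery time. Means were 5513.1 ± 596.8 in sham, 8837.1 ± 219.6 at 300 µg/l and 10456 ± 641.5 at 600 µg/l (SD, n = 3 arrays each). The log2 change at 600 µg/l against sham was 0.92 (SE 0.06, 95% confidence interval 0.78 to 1.06), with an adjusted p of 0.000271 in limma. Its rank by p was 3 among the 19638 probe sets. Within the times the 600 µg/l array exceeded the sham array by 1.01 at 2 h, 0.85 at 6 h and 0.90 at 20 h.

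Ctsk had signals of 110.1, 46.7 and 95.1 in sham at 2, 6 and 20 h, of 332.5, 219.5 and 221.4 at 300 µg/l, and of 327.7, 403.8 and 432.6 at 600 µg/l. All 6 smoke arrays lay above all 3 sham arrays, but the 300 and 600 µg/l arrays overlapped through the 2 h pair. Every sham array lay under the 183.8 of the filter, so the size of the rise depends on the pseudocount. On the signals as deposited, the ratio of the group means was 4.62 at 600 µg/l and 3.07 at 300 µg/l against sham. The log2 change at 600 µg/l was 1.73 (SE 0.19, 95% confidence interval 1.31 to 2.15), with an adjusted p of 0.00316 in limma. It was 1.05 with 4 times the pseudocount and 2.11 with 0.25 times the pseudocount, and passed the test with both.

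Ctsz and Ctss came next in size and did not pass. Ctsz, a carboxypeptidase also called cathepsin X, had signals of 667.4, 855.4 and 588.6 in sham, 1000.8, 1133.8 and 767 at 300 µg/l, and 1126.9, 1103.7 and 1318.6 at 600 µg/l, in the order 2, 6 and 20 h. Its 600 µg/l arrays all lay above the sham arrays, while the 300 µg/l array at 20 h lay within the sham range. Its change at 600 µg/l was 0.72 (SE 0.14), with an adjusted p of 0.0634 in limma. It passed when p-values were adjusted within each array type (0.0362), and also without the 600 µg/l condition at 6 h (0.0388). Ctss, which cleaves the invariant chain of MHC class II molecules and keeps its elastin-degrading activity at neutral pH, had 1611.6, 1984.2 and 1842.5 in sham, 2598.8, 2250.9 and 2150.5 at 300 µg/l, and 2618.4, 2419.8 and 2706.7 at 600 µg/l. Its 6 smoke arrays all lay above its sham arrays, with an overlap between the smoke concentrations. Its change at 600 µg/l was 0.50 (SE 0.10), with an adjusted p of 0.0836 in limma, 0.0488 with adjustment within each array type and 0.0478 with no term for recovery time.

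The changes of Ctsc and Ctsb were smaller. Ctsc, or dipeptidyl peptidase 1, activates the serine proteases of neutrophil and lymphocyte granules. Its brighter probe set had 1705.4, 1874.1 and 1796 in sham, 2031, 2281.8 and 1603.1 at 300 µg/l, and 2487, 2317.9 and 2288.2 at 600 µg/l. The 600 µg/l arrays lay above all others, and the 300 µg/l array at 20 h was the lowest of the 9. The change at 600 µg/l was 0.39 (SE 0.10, adjusted p = 0.184 in limma), against 0.09 (SE 0.09, adjusted p = 0.781) for the dimmer probe set, whose 600 µg/l and sham arrays overlapped. Ctsb, which acts both as an endopeptidase and as a carboxydipeptidase, had 5711.7, 5800.1 and 5887.9 in sham, 6477.4, 6456.3 and 6101.5 at 300 µg/l, and 6819.2, 6913.6 and 7466.1 at 600 µg/l. Its 3 groups did not overlap, as with Ctsd, but the steps were small, with a change of 0.28 at 600 µg/l (SE 0.06, adjusted p = 0.0987 in limma).

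Ctsh and Ctsl varied as much among sham arrays or among times as between exposures. Ctsh, an aminopeptidase that takes part in the maturation of surfactant proteins B and C in alveolar type 2 cells, had 5296.3, 6108.3 and 4924.8 in sham, 6172.8, 5938.1 and 5778.8 at 300 µg/l, and 5943.5, 6282 and 6593.5 at 600 µg/l. The sham array at 6 h lay above 2 of the 300 µg/l arrays and 1 of the 600 µg/l arrays. Its change at 600 µg/l was 0.21 (SE 0.08, 95% confidence interval 0.03 to 0.38), with an adjusted p of 0.395 in limma. Ctsl, an endopeptidase of broad range, had 2103.2, 2334.8 and 2113.3 in sham, 2826.8, 2524.5 and 2070.3 at 300 µg/l, and 3053, 2387.6 and 1919 at 600 µg/l on its brighter probe set. The highest and the lowest of its 9 arrays were both at 600 µg/l, at 2 h and at 20 h. Its change at 600 µg/l was 0.14 (SE 0.11, 95% confidence interval -0.11 to 0.39), with an adjusted p of 0.727 in limma.

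**Figure D2:**
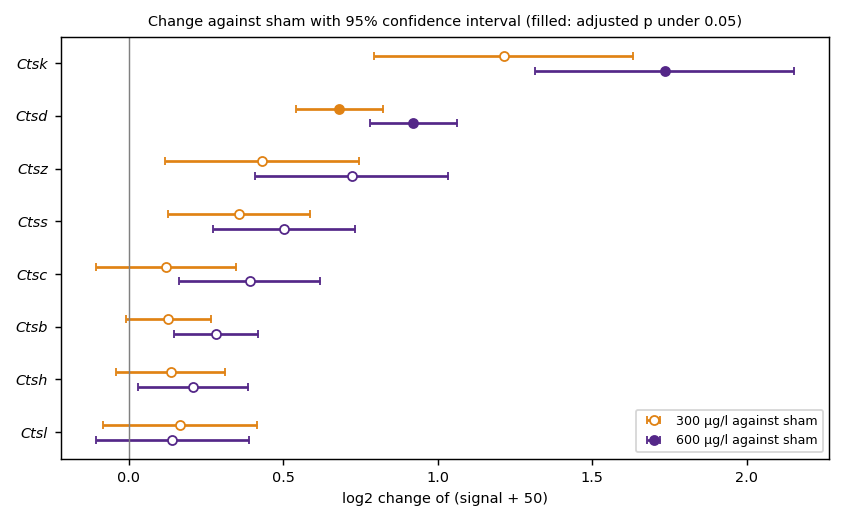
Log2 change of (signal + 50) against sham (x axis) for the 8 cathepsins, with 95% confidence intervals from limma at 300 µg/l (orange) and 600 µg/l (purple), where filled points passed an adjusted p of 0.05. Ctsk and Ctsd stood farthest from 0, at 1.73 and 0.92 at 600 µg/l, and the intervals of Ctsl included 0 at both concentrations.

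At 300 µg/l against sham, Ctsd was the 1 cathepsin of 8 that rose, where 0.0407% of all probe sets were called higher. Its change was 0.68 (SE 0.06), or 1.60-fold, with an adjusted p of 0.00656 in limma. Ctsk changed by 1.21 (SE 0.19, adjusted p = 0.0773). It passed in the fit without the 600 µg/l condition at 2 h (0.0293) and with adjustment within each array type (0.0406). The call of Ctsd was lost under 5 of 21 alternatives. Among them were the fits without 300 µg/l at 2 h (0.0551), 300 µg/l at 6 h (0.053) or sham at 2 h (0.0559). The other 6 genes had changes from 0.12 for Ctsc to 0.43 for Ctsz and did not pass. That of Ctsc was 0.02 without the 300 µg/l condition at 6 h and 0.25 without that at 20 h. It was 0.06 and 0.20 without the sham condition at 2 h and at 20 h. In all, 4 of the 8 had an unadjusted p under 0.05, beside 5.53% of all probe sets, and the median change was 0.26 (0.17 without Ctsk). This comparison and the one at 600 µg/l share their sham arrays.

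Between the 2 smoke concentrations, no cathepsin passed the test in limma, where 0.0204% of probe sets were called higher at 600 µg/l, and 4 of the 8 had an unadjusted p under 0.05, beside 5.05% of all probe sets. The differences of 600 minus 300 µg/l were 0.52 for Ctsk (95% confidence interval 0.10 to 0.94), 0.29 for Ctsz, 0.27 for Ctsc, 0.24 for Ctsd (0.10 to 0.38), 0.15 for Ctsb, 0.15 for Ctss, 0.07 for Ctsh and -0.03 for Ctsl. Leaving out single conditions moved several of these by over 1.5 times. Without 600 µg/l at 20 h the difference of Ctsz was 0.08. Without 600 µg/l at 6 h it was 0.47 for Ctsz and 0.34 for Ctsk. Without 300 µg/l at 20 h it was 0.16 for Ctsz, 0.14 for Ctsc and 0.07 for Ctss. A p above the threshold does not show that the concentrations acted alike, and for Ctsk the interval reaches 0.94. Ctsd took most of its step in the first 300 µg/l: its value there lay 0.22 (SE 0.05) above the midpoint of sham and 600 µg/l, with an unadjusted p of 0.00239 and an adjusted p of 1 in limma. None of the 8 passed the test for such a departure from a straight line, where 0.00509% of all probe sets did, and 1 had an unadjusted p under 0.05, beside 3.32%.

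The order of the arrays, counted without a model, did not pick out the same members as the test: Ctsb, which did not pass, had the order at every time, and Ctsk, which passed, had it at 2 of 3. Signals stood in the order sham, 300, 600 µg/l at all 3 recovery times for 3 of the 8 cathepsins (Ctsb, Ctsd and Ctss), and for 1.21% of all probe sets. All 600 µg/l arrays lay above all sham arrays for 6 of the 8 (Ctsb, Ctsc, Ctsd, Ctsk, Ctss and Ctsz), beside 6.98% of all probe sets. All 300 µg/l arrays lay above all sham arrays for 4 (Ctsb, Ctsd, Ctsk and Ctss), beside 4.12%. Ctsk passed the filter only through its smoke arrays, so it is no independent part of these counts against sham. All 600 µg/l arrays lay above all 300 µg/l arrays for 3 (Ctsb, Ctsc and Ctsd), beside 4.52%.

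Whether a cathepsin's dose response differed from that of Ctsh was tested on the log2 ratio of each member to Ctsh on the same array. Of 7 ratios, 4, those of Ctsk, Ctsd, Ctsz and Ctss, rose with smoke relative to Ctsh, and those of Ctsc, Ctsb and Ctsl did not pass. All 7 share the Ctsh signal, so they are not independent of each other. With equal steps the 300 µg/l arrays have no weight in the slope, which restates the difference between 600 µg/l and sham. Ctsk was dim in sham, and its slope ran from 0.425 to 0.951 over 4 other scalings and pseudocounts. Per 300 µg/l the ratio to Ctsh rose by 0.76 for Ctsk and 0.36 for Ctsd, each with p = 0.00926, the smallest the test can give, in a two-sided exact permutation test of exposure within recovery time. The slopes were 0.26 for Ctsz and 0.15 for Ctss, each with an exact permutation p of 0.0185. All 4 had a Benjamini-Hochberg adjusted p of 0.0324 over the 7 ratios, and each was higher at 600 µg/l than in sham at 3 of 3 times. For Ctsc the slope was 0.09 (exact permutation p = 0.278, adjusted 0.389), for Ctsb 0.04 (0.352, adjusted 0.411) and for Ctsl -0.03 (0.741, adjusted 0.741).

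**Figure D3:**
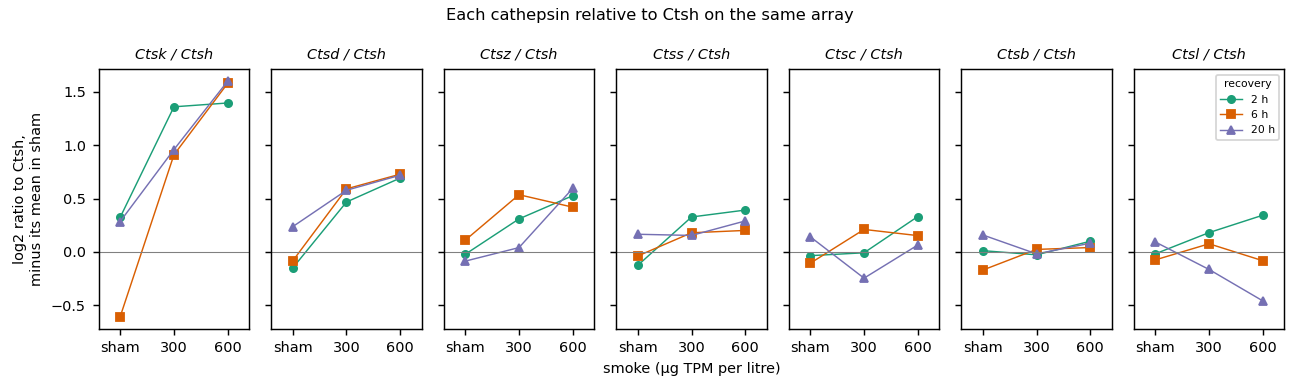
Log2 ratio of each cathepsin to Ctsh on the same array, minus its mean in sham (y axis, shared by all panels), against sham, 300 and 600 µg TPM per litre, with lines joining arrays of a recovery time. The ratios of Ctsk, Ctsd, Ctsz and Ctss were higher at 600 µg/l than in sham at all 3 times, and that of Ctsl was higher at 2 h alone.

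No cathepsin passed a test between recovery times. At 6 h against 2 h, over the 3 exposures, no member of 8 passed in limma, where 0.0153% of all probe sets did in either direction, and 1 had an unadjusted p under 0.05 (Ctsd, 0.15), beside 10.8%, a share near that of the members. At 20 h against 2 h again none of 8 passed, where 0.0509% of all probe sets did, and 2 had an unadjusted p under 0.05, beside 11.4%. These were Ctsd, with a difference of 0.16, and Ctsl, with -0.36 (SE 0.11, unadjusted p = 0.00877, adjusted p = 0.268).

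Ctsl had the smallest unadjusted p of the 8 for a smoke difference that changed with recovery time, without passing after adjustment. Its 600 µg/l array differed from the sham array of the same time by 0.53 at 2 h, 0.03 at 6 h and -0.14 at 20 h, and its 300 µg/l array by 0.42, 0.11 and -0.03. Both concentrations thus stood above sham at 2 h and below it at 20 h. With both concentrations pooled, the smoke difference was 0.56 lower at 20 h than at 2 h (-0.56, SE 0.16, unadjusted p = 0.00674, adjusted p = 1 in limma) and 0.40 lower at 6 h than at 2 h (-0.40, unadjusted p = 0.0317, adjusted p = 0.766). The dimmer probe set, of the same deposited transcript accession, gave -0.64 at 20 h and -0.59 at 6 h. None of the 8 passed either test, where 0.0102% of all probe sets passed at 20 h against 2 h and 0% at 6 h against 2 h, and 1 of 8 had an unadjusted p under 0.05 in each, beside 3.45% and 6.27%. The residual spread of these tests is that between 300 and 600 µg/l, so sham arrays, 1 per time, add none to it.

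Among the others, Ctss stood higher by 0.68 at 600 µg/l and 0.67 at 300 µg/l at 2 h, and by 0.28 and 0.18 at 6 h. Ctsk showed the opposite order at 600 µg/l, with 1.24 at 2 h and 2.23 at 6 h, its sham array at 6 h being the dimmest. Ctsz had its highest difference, 1.10, at 20 h at 600 µg/l, against 0.36 at 300 µg/l at that time. Each of these values sets 1 array against 1 array.

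**Figure D4:**
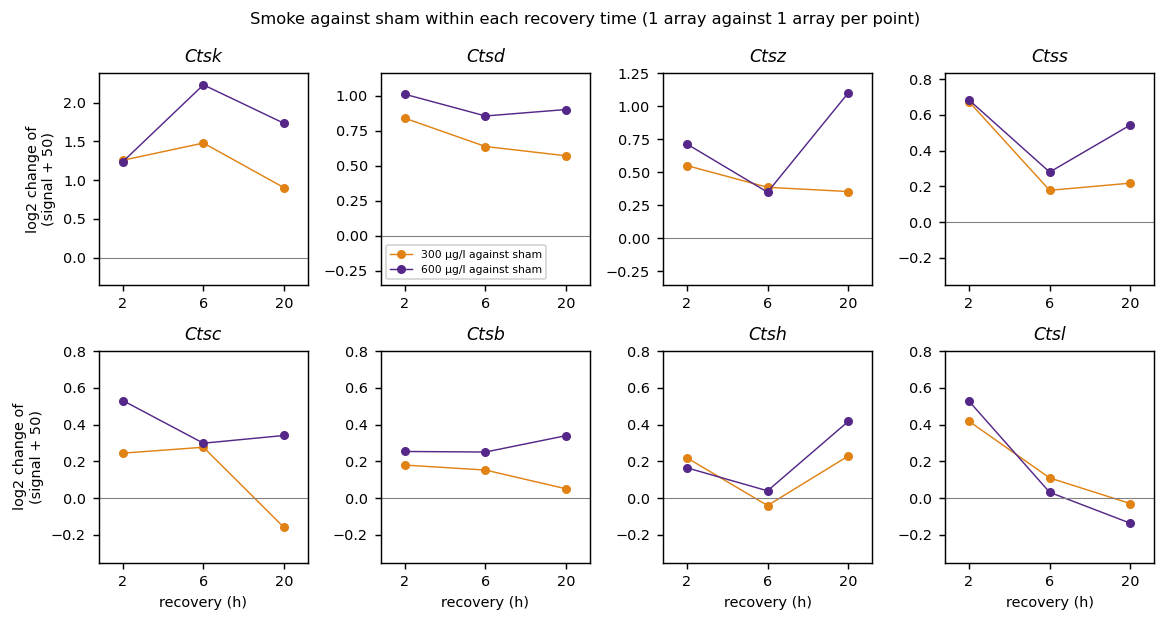
Log2 change of (signal + 50) against the sham array of the same recovery time (y axis) at 2, 6 and 20 h (x axis) for 300 µg/l (orange) and 600 µg/l (purple), 1 array against 1 array per point. The differences of Ctsd stayed between 0.57 and 1.01, while those of Ctsl were 0.42 and 0.53 at 2 h and below 0 at 20 h.

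Across the 9 arrays the members other than Ctsl were all positively correlated. Pearson's r of log2(signal + 50) was 0.923 between Ctsd and Ctss, 0.911 between Ctsb and Ctsd and 0.903 between Ctsd and Ctsk. The lowest among these 7 was 0.598, between Ctsc and Ctsh. With Ctsl it was between 0.158 (Ctsb) and 0.534 (Ctsc). The arrays share exposure, and after each exposure's mean was taken away r was 0.493 for Ctsd and Ctss, -0.301 for Ctsd and Ctsk and 0.777 for Ctsh and Ctsz. Of the 6 such values of Ctsk with members other than Ctsl, 5 were below 0. These are descriptions over 9 arrays of 1 type.

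Outside the family, among 6427 genes on type A, those with patterns most like a member's were taken as the highest 3 by r over the 9 arrays. The highest of so many values over 9 arrays are large by selection alone, and the arrays share exposure. No likeness was tested. For Ctsd they were the syntenin gene Sdcbp (0.987), Pld3, a phospholipase D family member of lysosomes (0.984), and Gpnmb, a glycoprotein of lipid-laden macrophages (0.979). For Ctsb they were Capg, an actin-capping protein (0.979), Tmem256 (0.978) and Lgmn, the lysosomal protease legumain (0.975). For Ctsk they were Cmbl, the neutrophil chemokine gene Cxcl2 and Lcn2, which encodes lipocalin 2, at 0.972 each. Ctsz was most like Ghitm (0.967), Cstb (0.96) and Atp6v0b (0.95), and Ctss most like Rasa4 (0.969), Ddb2 (0.968) and Slc6a20a (0.963). For Ctsc they were the membrane protein gene Stom (0.957), the complement gene C1qb (0.952) and Me1, which encodes malic enzyme (0.946). Ctsl was most like Ifitm2 (0.968), Hivep2 (0.953) and Aldh3a1, an aldehyde dehydrogenase induced through the aryl hydrocarbon receptor (0.944), and Ctsh most like Plod1 (0.942), Eef1g (0.928) and Txnrd3 (0.922).

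Other cathepsins on the arrays did not pass at 600 µg/l against sham. Of 8 with a probe set, 5 (Ctsj, Ctsm, Ctsq, Ctsr and Ctsw) were too dim to test. Ctsf changed by 0.39 (adjusted p = 0.219 in limma), Ctsa, the protective protein of neuraminidase and galactosidase, by 0.34 (0.101), and Ctse by 0.04 (0.938). Of 7 protease inhibitors tested, none passed, with a median of 0.11, and not all of them inhibit the cathepsins described here. Cstb, the intracellular inhibitor cystatin B, was at 0.45 (adjusted p = 0.19) and Ctla2a at -0.25. Spink5 was at 0.44 and Serpina1, the antitrypsin gene, at -0.28. Of 6 genes listed under the processing and activation of lysosomal proteases none passed, with a median of 0.20, and not all of them act on proteases. Among them were Lgmn at 0.38 (adjusted p = 0.0613), Grn, which encodes progranulin, at 0.37 (0.0886), Psap, which encodes prosaposin, at 0.24 and Tpp1 at 0.16.

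Few other lysosomal genes passed at 600 µg/l against sham, where 0.428% of all probe sets were called higher. Of 24 lysosomal hydrolases, 2 rose and none fell at 600 µg/l against sham, with a median of 0.10: Naaa, an amidase of fatty acid ethanolamides, by 0.89 (SE 0.07, adjusted p = 0.000519), and Acp5, the tartrate-resistant acid phosphatase shared by osteoclasts and macrophages, by 0.66 (SE 0.11, adjusted p = 0.0389). Naaa also rose at 300 µg/l, by 0.60 (adjusted p = 0.0221). Glb1 at 0.42, Hexa at 0.34, Lipa at 0.28 and Fuca1 at 0.20 did not pass. Of 15 subunits of the proton pump that acidifies lysosomes, 1 rose, Atp6v1b2 by 0.47 (SE 0.08, adjusted p = 0.0426), and the median was 0.12, with Atp6v0b at 0.32, Atp6ap2 at 0.34, Atp6v0a1 at 0.21 and Atp6v1c1 at 0.33 not past. None of 11 genes listed under the lysosomal membrane passed (median 0.18). Cd63 was at 0.39 (adjusted p = 0.0506 in limma), Lamp2 at 0.34 (0.0967), Npc2, whose protein is soluble, at 0.26 and Lamp1 at 0.16. None of 10 genes of sorting to the lysosome passed (median 0.09), with Nagpa at 0.21, Vps35 at 0.19, Igf2r at 0.15 and Gga2 at -0.22. Of the transcription factors of lysosomal genes, Tfeb was at 0.08, Tfe3 at 0.05 and Mitf at 0.03, and none of the 3 passed.

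**Figure D5:**
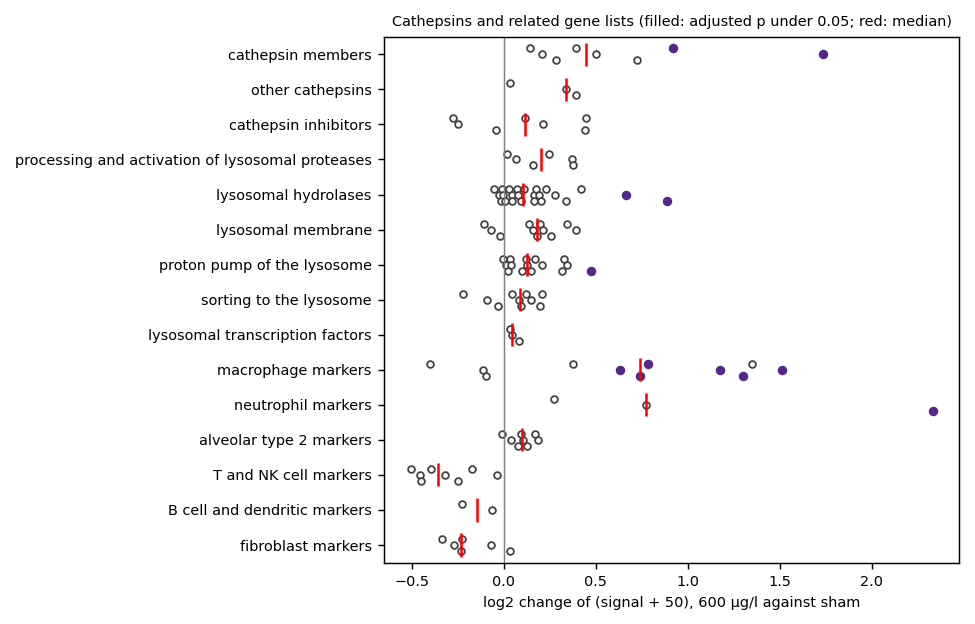
Log2 change of (signal + 50) at 600 µg/l against sham (x axis) for each tested gene of the cathepsin family and of 14 further lists, 1 point per gene with red bars at the medians and filled points past an adjusted p of 0.05. Filled points stood among the cathepsins (2 of 8), hydrolases (2 of 24), proton pump subunits (1 of 15), macrophage markers (6 of 11) and neutrophil markers (1 of 3). Over all probe sets 0.428% were called higher.

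Of 11 macrophage markers tested, 6 rose and none fell at 600 µg/l against sham, with a median of 0.74. Over all probe sets 0.428% were called higher, and the list was written with earlier results of these data known. Those that rose were Mmp12, the macrophage elastase (1.51), Gpnmb (1.30), Cd68, a glycoprotein of macrophage lysosomes (1.17), Cd14 (0.78), Lgals3 (0.74) and Lpl (0.63). Sham signals of Mmp12 were 157.9 to 191.2, so without its smoke arrays it would not have passed the filter at 183.8. Trem2 at 1.35, Mrc1 at 0.38, Apoe at -0.10, Csf1r at -0.12 and Adgre1 at -0.40 did not pass, and Fabp4 was too dim to test. At 300 µg/l, 2 of 11 rose, Gpnmb by 0.97 and Cd68 by 0.85, where 0.0407% of all probe sets were called higher. The summed signal of the list was 22696.9 to 23389.5 in sham, 28619.4 to 31432.1 at 300 µg/l and 33476.4 to 37288 at 600 µg/l, a sum in which bright probe sets count most. That of the 8 cathepsins was 22030.4 to 24833.2 in sham, 27454.2 to 30105.3 at 300 µg/l and 32137.7 to 33752.1 at 600 µg/l. Within it Ctsd alone had means of 5513.1 in sham and 10456 at 600 µg/l, so the sum is no measure of the whole family. The part of macrophage number in the cathepsin changes was not tested.

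Of the markers of other lung cells, 1 passed at 600 µg/l against sham, where 0.428% of all probe sets were called higher. None of 8 alveolar type 2 markers passed at 600 µg/l (median 0.10), with Sftpd at 0.19, Napsa, itself an aspartic protease, at 0.17, Slc34a2 at 0.09 and Sftpa1 at 0.07, and their summed signals overlapped across the exposures. Of 3 neutrophil markers 1 rose, S100a9 by 2.34, while S100a8 at 0.77 and Csf3r at 0.27 did not pass. None of 8 T and NK cell markers passed, with a median of -0.36, Nkg7 being at -0.51 and Cd3g at -0.40. None of 6 fibroblast markers passed, with a median of -0.23, Col1a1 being at -0.34 and Col3a1 at -0.24. The fibroblast sum was 15127.7 to 15826.8 in sham, 12374.4 to 13911.8 at 300 µg/l and 12297.6 to 13751.1 at 600 µg/l. Both B cell and dendritic markers that could be tested were below 0 without passing. The part of these cells in the cathepsin changes was not tested either.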

How the data were processed

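Total lung RNA was converted to biotin-labelled cRNA and measured on 2 types of Affymetrix array, according to the labels. The deposited values are signal intensities on a linear scale, which the authors computed with MAS5 (version not given), per the submitters' processing notes. Detection calls were not used here. The authors' scaling was kept. Gene symbols came from the platform annotation.

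Signals were analysed as log2(signal + 50). A probe set entered the fit if 3 or more of its 9 arrays reached the 40th percentile of the array type, which was 183.8 for A and 238.7 for B. This kept 9901 probe sets for A and 9737 for B. Models were fitted per type with limma 3.58.1 (R 4.3.3), using lmFit and then eBayes with its intensity trend, with Benjamini-Hochberg adjustment over both types, a threshold of 0.05 and two-sided tests. Exposure and recovery time were terms without interaction (4 residual degrees of freedom). A second model, with 3 residual degrees of freedom, added the interaction of smoke (both levels) with time. Ratios to Ctsh were tested by exact permutation of exposure within time. Ctsh was chosen as a yardstick for its part in alveolar type 2 cells, but which lung cells gave its signal was not measured. The code was tested on simulated data. Alternatives were quantile or median scaling, 0.25 and 4 times the pseudocount, other filters, no intensity trend, adjustment within type, only the exposures compared, no time term, no 20 h conditions, 1 array of type B left out, and each condition left out in turn.

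The cathepsins and the gene lists were chosen with earlier results of these data known. All 8 cathepsins are named, further every listed gene past the threshold at 300 or 600 µg/l against sham, up to 4 more per list by adjusted p, and the 3 genes most like each cathepsin. Csf1r and the genes named as too dim were added after their values were seen.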

Additional observations from a re-analysis of the deposited data

Results flagged for a closer look

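For Ctsl and for the dimmer probe set of Ctsc, both smoke concentrations stood on one side of sham at one recovery time and on the other side at another. The brighter Ctsl probe set averaged 0.47 above sham at 2 h and 0.08 below it at 20 h (a difference of -0.56, adjusted p = 1 in limma's interaction test). At 6 h it averaged 0.07, against -0.08 at 20 h, a difference of -0.15 that was not tested. The dimmer Ctsl probe set averaged 0.45 at 2 h, -0.14 at 6 h and -0.19 at 20 h, differing from 2 h by -0.59 (adjusted p = 0.725) and by -0.64 (adjusted p = 1). The dimmer Ctsc probe set averaged 0.16 at 2 h and -0.19 at 20 h, a difference of -0.35 (adjusted p = 1), while the brighter one had 0.24 and 0.53 at 2 h and -0.16 and 0.34 at 20 h at 300 and 600 µg/l. Each average rests on 2 smoke arrays and 1 sham array.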

How the results depend on the processing

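At 600 µg/l against sham, Ctsd passed under 21 of 21 alternatives (0.86 to 0.95) and Ctsk under the 20 of 20 that tested it (1.05 to 2.11). The number of cathepsins called there was 1 with the filter at the 60th percentile, which left Ctsk untested, 4 with adjustment within each array type, and 2 to 3 when 1 condition was left out. At 300 µg/l against sham it was 0 with no filter and 0 with no intensity trend (Ctsd at adjusted p = 0.0662 and 0.0664), 2 with adjustment within each array type, and 0 to 2 when 1 condition was left out. No cathepsin passed between 600 and 300 µg/l, for a departure from a line, between times or for a smoke difference between times under any alternative run. The number of ratios to Ctsh past the threshold was 4 under each of 4 scalings and pseudocounts. Values near 0 changed sign. Ctsl at 600 µg/l against sham ran from -0.018 to 0.259 with 1 condition left out. Ctsl between 600 and 300 µg/l was 0.002 with median scaling, 0.015 without the 20 h conditions and -0.156 to 0.064 with 1 condition left out. Ctsh between 600 and 300 µg/l ran from -0.01 to 0.12 with 1 condition left out. The cause of these shifts was not tested.

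Over all probe sets, the main count was 101 at 600 µg/l against sham (35 to 143 over the alternatives), 9 at 300 µg/l (1 to 29), 4 between the concentrations (1 to 4), 1 for a departure from a line (0 to 2), 3 for 6 h against 2 h (1 to 7), 10 for 20 h against 2 h (0 to 28), and 0 (0 to 1) and 2 (1 to 4) for the smoke difference at 6 and 20 h minus that at 2 h. Leaving out a sham condition or the type B sham array of 2 h was not possible in the interaction model, which has 1 sham array per time. No paired analysis was possible because the labels number no replicates; recovery time was a term of the model instead. With 3 arrays per exposure and sham signals of Ctsk under the filter, the size of its rise is uncertain.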
